A study of Mus musculus with 6 samples.

Results

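The genes described here are 38 p53 target genes and apoptosis effectors, taken as a named list and matched to the rows of the array table that name 1 gene only. All 38 had such a row, 1 row each, of 19938 genes with a single-gene row. They were measured in mouse embryos at embryonic day 16.5, on RNA of the entire brain, with 1 Affymetrix Mouse Gene 1.0 ST array per brain. The tested animals were 3 Tdp2Δ1-3 embryos, called mutants below, whose name denotes a deletion of exons 1 to 3 of Tdp2, and they were compared with 3 wild-type embryos. No other allele and no treatment is named for either genotype, and the labels give neither litter nor sex. The series text calls the brains 3 independent pairs, without saying which mutant was paired with which wild type. The comparison asks whether transcripts of the p53 response and of the cell death machinery differ when TDP2 is missing.

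TDP2 is the phosphodiesterase that frees DNA ends from trapped topoisomerase II, and breaks left with blocked ends can activate the kinases ATM and ATR. These kinases stabilise p53, a transcription factor that raises its own inhibitor Mdm2, growth arrest genes, repair genes and death genes such as Bbc3 and Pmaip1. Death proteins of the BH3-only class release BAK and BAX from survival proteins of the BCL2 family, the mitochondrial membrane opens, and the apoptosome with APAF1 and caspase-9 activates the executioner caspases. In the embryonic brain, neural progenitors and newborn neurons are known to die through p53 when DNA breaks persist.

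Only 31 of the 38 genes had a promoter sequence among the RefSeq windows used here (assembly GRCm38.p6, 250 bases before to 50 after each transcript start). The motif searched first was the p53 decamer, the 10-base unit that p53 binds in pairs, which is its own reverse complement and so was read on both strands at once. It was found in the windows of 9 of the 31 genes (29.0%), against 2582 of 27025 genes with a window (9.55%). None of the 31 held a pair of exact decamers within 13 bases, which 20 of the 27025 genes did. No mismatch to the consensus RRRCWWGYYY (R for A or G, W for A or T, Y for C or T) was allowed, so pairs with an imperfect decamer were not counted. In the Ccng1 stretch below, the 10 bases before the decamer depart from the consensus only by a C in place of A or T. In the Gtse1 stretch, the 10 bases before the decamer depart from it only by a last G in place of C or T. The matches are printed 5′ to 3′ on the gene's strand with the decamer in capitals, because they show which of the canonical targets carry the p53 letters close to their start.

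Mdm2, chr10:117710925-117710954, minus strand: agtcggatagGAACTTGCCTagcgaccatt
Ccng1, chr11:40755452-40755481, minus strand: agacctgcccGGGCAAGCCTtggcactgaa
Gadd45a, chr6:67037428-67037457, minus strand: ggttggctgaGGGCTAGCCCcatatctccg
Sesn1, chr10:41887256-41887285, plus strand: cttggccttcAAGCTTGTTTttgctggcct
Ddit4l, chr3:137623572-137623601, plus strand: caactcccagGGGCTTGCCTgggcccctgc
Ei24, chr9:36797325-36797354, minus strand: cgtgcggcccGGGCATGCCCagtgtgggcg
Polk, chr13:96519399-96519428, minus strand: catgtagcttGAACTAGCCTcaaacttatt
Aen, chr7:78895927-78895956, plus strand: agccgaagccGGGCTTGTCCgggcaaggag
Gtse1, chr15:85859945-85859974, plus strand: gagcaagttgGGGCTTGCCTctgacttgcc

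Gtse1 was the only one of these 9 genes that differed between the genotypes at an adjusted p under 0.05. Its decamer begins at base 10 after the downstream of its 2 annotated starts. A match to these letters is a description of the window, and p53 sites in introns or farther upstream lie outside it.

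Every value was a log2 value centred on the gene's median over the 6 arrays. Differences between arrays are kept and levels are not, so genes cannot be ranked by level and brain markers cannot be checked for presence. By this centring the 2 middle values of each gene are equal in size and opposite in sign. Tdp2 had centred log2 values of -1.05, -0.90 and -0.94 in the mutants, against 0.90, 1.10 and 1.34 in the wild types, a 4.21-fold lower signal (limma adjusted p = 0.00035). The array row may hold probes outside the deleted exons. Array medians over all rows lay between -0.011 and 0.014. The number of arrays limits the precision, and p-values measure the spread between samples that the labels call biological replicates.

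Of the 38 genes, 4 rose in the mutants, 1 fell and 33 did not pass the test (limma, Benjamini-Hochberg adjusted p under 0.05 over 23410 rows). The rises were in Gtse1, Psrc1, Trp53inp1 and Casp6, and the fall was in Perp. These 5 are 13.2% of the list, and 6.47% of all 23410 rows passed the same test. Higher calls made up 2.34% of all rows and lower calls 4.13%. None of the 38 reached the 1.5-fold limit stated in the series text together with the adjusted p, which 0.641% of all rows did. By limma none was both past an unadjusted p under 0.05 and past 1.5-fold. The largest difference of the list was 1.32-fold.

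Smaller differences were spread over the list. The genotypes did not overlap for 15 of the 38 genes (39.5%), 11 higher and 4 lower in the mutants, against 25.7% of all rows. An unadjusted p under 0.05 was reached by 13 genes (34.2%), 10 higher and 3 lower, against 21.8% of all rows. The median difference, mutant minus wild type, was 0.022 over the 38 genes and 0.013 over all rows, on the log2 scale. The median size of the difference without its sign was 0.093 for the list and 0.064 for all rows.

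**Figure D1:**
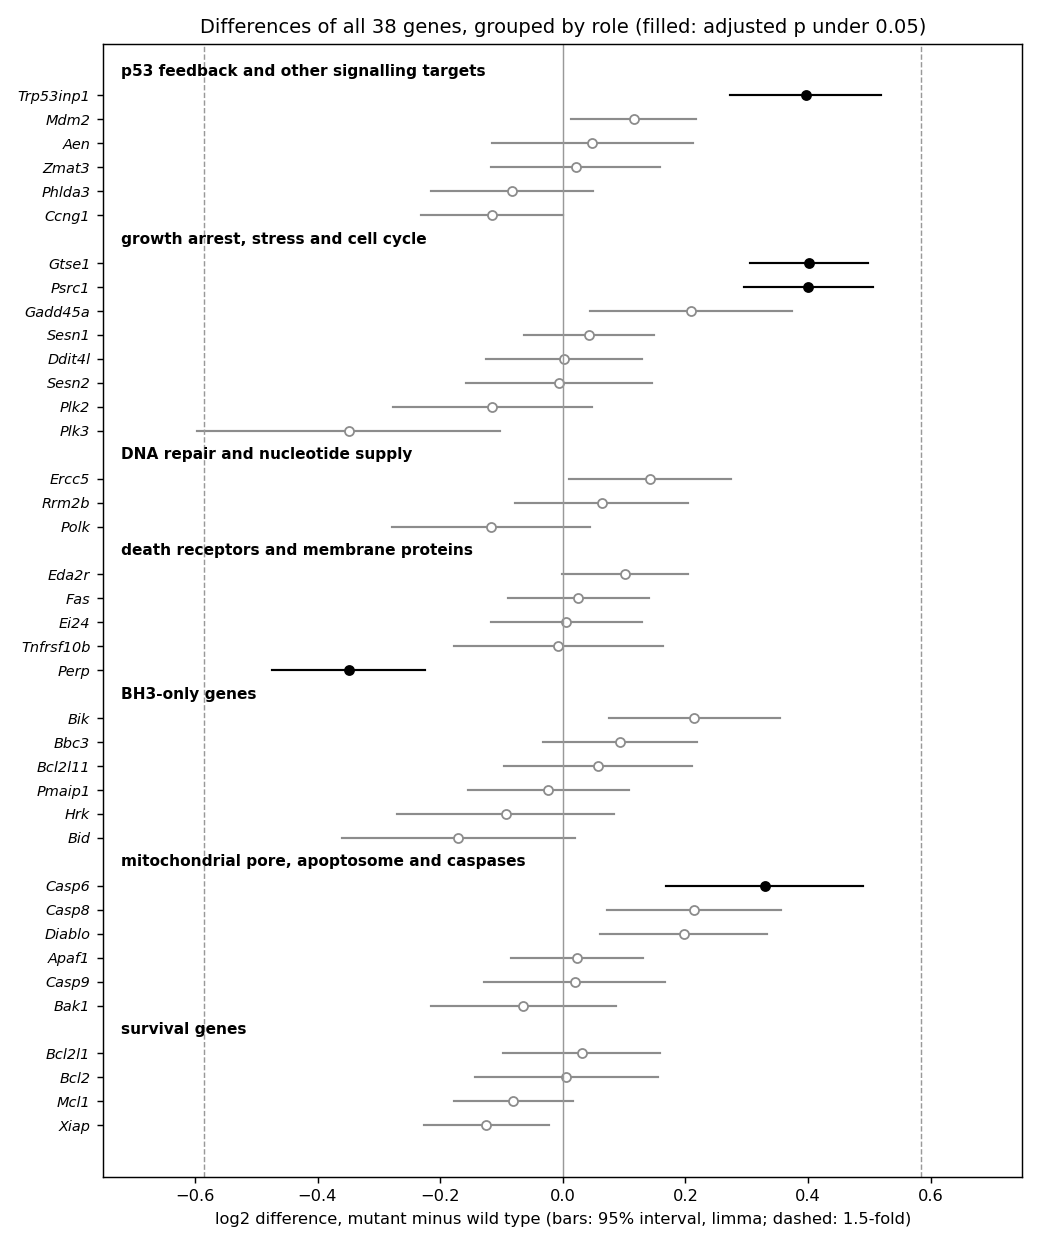
Log2 difference, mutant minus wild type, of each of the 38 genes (x axis), with its 95% interval from limma, grouped by role (rows). Filled points are the 5 genes with an adjusted p under 0.05, open grey points the other 33, and the dashed lines mark 1.5-fold, which no point reaches.

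Gtse1 and Psrc1, both genes of dividing cells, had the smallest standard errors of the 4 genes that rose. Gtse1 encodes a microtubule-associated protein made in S and G2 phase that moves p53 out of the nucleus. Psrc1, also called DDA3, encodes a spindle protein that helps depolymerise microtubules in mitosis. Gtse1 had centred log2 values of 0.22, 0.17 and 0.19 in the mutants, against -0.22, -0.23 and -0.17 in the wild types. Every mutant brain was above every wild-type brain, and the gap between the genotypes was wider than the spread within either. The mutants were 1.32-fold higher, a difference of 0.40 ± 0.04 (SE, n = 3 per genotype; limma adjusted p = 0.0048). Psrc1 had values of 0.15, 0.22 and 0.22 in the mutants, against -0.21, -0.15 and -0.24 in the wild types. Its groups were likewise apart, and the difference was 0.40 ± 0.05 (SE), 1.32-fold (limma adjusted p = 0.0062). Leaving out any 1 array kept both calls, and the highest limma adjusted p was then 0.037 for Gtse1 and 0.047 for Psrc1.

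Markers of cycling cells were also higher in the mutants. Of 19 cycling-cell genes measured, 18 rose and none fell, with a median difference of 0.56. Their mean centred value was 0.19, 0.33 and 0.34 in the mutants, against -0.40, -0.21 and -0.19 in the wild types. Without mutant replicate 2, 3 of the 19 passed. Of 15 neuron markers 8 fell, with a median of -0.22, and 1 fell without mutant replicate 2. The neuron mean was -0.093, -0.19 and -0.27 in the mutants, against 0.16, 0.13 and 0.12 in the wild types. Of 8 red-cell genes 2 rose and none fell, with a median of 0.094. They were the embryonic globin genes Hbb-y, 13.8-fold higher, and Hba-x, 2.72-fold higher (limma adjusted p = 5.4e-06 and 0.00035), and both passed in each of the 6 fits with 1 array left out. The red-cell mean was 0.30, 0.31 and 0.33 in the mutants, against -0.40, -0.33 and -0.34 in the wild types. This mean mostly reflects Hbb-y and Hba-x, since the 6 red-cell genes not called differed by only -0.14 (Tfrc) to 0.14 (Hbb-bh1). More cycling cells and more RNA per cycling cell cannot be told apart in whole brain, and the part of these marker shifts in the differences of Gtse1 and Psrc1 was not tested.

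**Figure D2:**
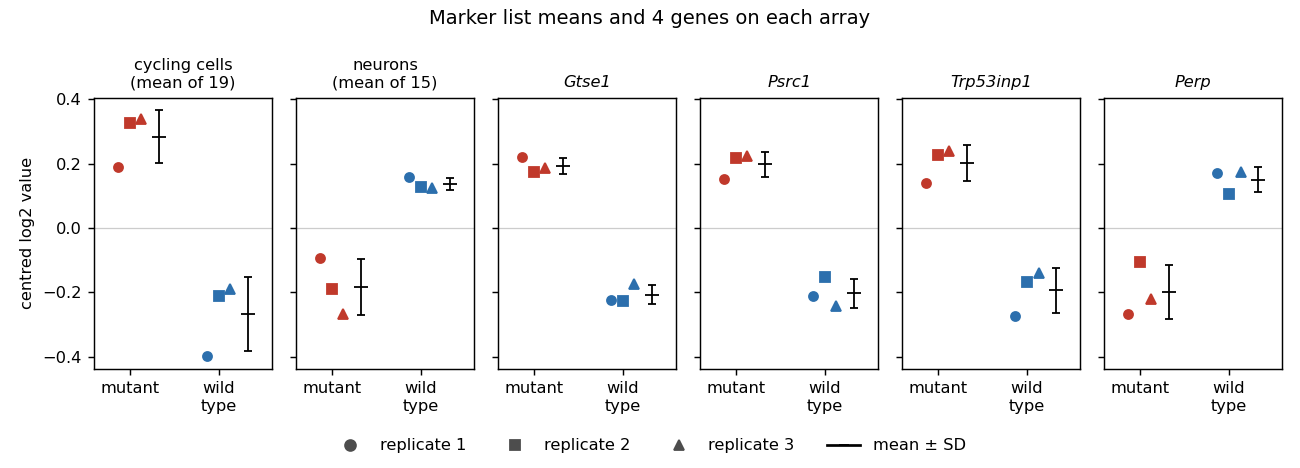
Centred log2 values (y axis) on each of the 6 arrays for the mean of 19 cycling-cell markers, the mean of 15 neuron markers, Gtse1, Psrc1, Trp53inp1 and Perp. Symbols mark the replicate number and bars the mean ± SD of 3 arrays; the cycling mean, Gtse1, Psrc1 and Trp53inp1 lie above 0 in every mutant, and the neuron mean and Perp lie below 0.

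The promoters of Gtse1 and Psrc1 are shown because both genes were higher in the mutants, as the cycling-cell markers were. Many promoters of mitotic genes carry CCAAT boxes, bound by the factor NF-Y, and the cell cycle homology element. The letters searched were CCAAT on both strands, and TTTGAA or TTCGAA on both strands. No other letters were searched for the cell cycle homology element, so other forms of it were not counted. The 250 bases before the upstream start of each gene are printed with CCAAT and its reverse complement ATTGG in capitals.

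Gtse1, chr15:85859457-85859706, plus strand: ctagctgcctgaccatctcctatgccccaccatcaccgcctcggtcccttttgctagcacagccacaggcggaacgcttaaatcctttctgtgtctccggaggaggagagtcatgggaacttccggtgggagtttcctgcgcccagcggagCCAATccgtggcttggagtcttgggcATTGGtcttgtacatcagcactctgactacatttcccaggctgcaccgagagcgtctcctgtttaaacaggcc
Psrc1, chr3:108383554-108383803, plus strand: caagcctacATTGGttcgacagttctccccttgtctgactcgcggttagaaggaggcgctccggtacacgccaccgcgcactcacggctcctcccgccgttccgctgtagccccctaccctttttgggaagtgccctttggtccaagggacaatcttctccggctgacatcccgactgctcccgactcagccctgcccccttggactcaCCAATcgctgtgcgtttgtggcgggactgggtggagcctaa

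Each promoter held 2 CCAAT boxes in these 250 bases. CCAAT was present for 14 of the 31 listed genes with a window (45.2%), for 41.1% of all genes with a window and for 15 of 17 cycling-cell markers (88.2%). TTTGAA or TTCGAA was present for 8 of the 31 genes (25.8%), for 21.7% of all genes and for 12 of 17 cycling-cell markers (70.6%). Psrc1 was the only listed gene with TTCGAA, which 1.80% of all genes held, at base 5 after its upstream start. The site is printed with the element in capitals.

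Psrc1, chr3:108383798-108383823, plus strand: gcctaagaaaTTCGAAcgaagctccg

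Neither Gtse1 window held TTTGAA or TTCGAA, and the Psrc1 windows held no p53 decamer. Casp6, the other called gene with a window, held none of these motifs, and Trp53inp1 and Perp had no window.

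Of the 6 genes that feed back on p53 or relay its signal, Trp53inp1 rose and the other 5 did not pass. Trp53inp1 encodes a stress-induced nuclear protein that promotes p53 phosphorylation and also acts in autophagy. Trp53inp1 had centred log2 values of 0.14, 0.23 and 0.24 in the mutants, against -0.27, -0.17 and -0.14 in the wild types, with no overlap. The rise was 1.32-fold, or 0.40 ± 0.05 on the log2 scale (SE, n = 3 per genotype; limma adjusted p = 0.0090). The call was lost without mutant replicate 2, at a limma adjusted p of 0.058, and held with any other array left out. Cycling-cell markers were higher and neuron markers lower in the same arrays, and their part in this rise was not tested.

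Mdm2, the ubiquitin ligase that degrades p53 and is itself a p53 target, had values of 0.059, 0.022 and 0.049 in the mutants, against -0.022, -0.12 and -0.076 in the wild types. The mutants were all above the wild types, by 0.12 ± 0.04 (SE), 1.08-fold, and the difference did not pass (limma adjusted p = 0.17). Ccng1, cyclin G1, a p53 target that recruits phosphatase to Mdm2, had values of -0.069, -0.011 and -0.16 in the mutants, against 0.044, 0.051 and 0.011 in the wild types. Here the mutants were all below the wild types, by -0.11 ± 0.05 (SE), and this did not pass either (limma adjusted p = 0.23). The estimates for these 2 canonical targets, both with a p53 decamer near their start, were of opposite sign. Neither passed the adjusted test. The unadjusted limma p was 0.030 for Mdm2 and 0.051 for Ccng1. The 95% interval of Mdm2 lay above 0 (0.014 to 0.22), and that of Ccng1 spanned 0 (-0.23 to 0.00063). The p53-induced RNA-binding protein gene Zmat3, the exonuclease gene Aen and the AKT inhibitor gene Phlda3 had differences of 0.021, 0.049 and -0.082. Their 95% intervals all spanned 0, with outer bounds of 0.16, 0.21 and -0.21.

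Among the arrest and stress genes other than Gtse1 and Psrc1, none of 6 passed by limma, and Gadd45a and Plk3 had an unadjusted p under 0.05. Gadd45a, a p53-induced gene of growth arrest and repair, had values of 0.091, 0.16 and 0.017 in the mutants, against -0.082, -0.017 and -0.26 in the wild types. The lowest mutant lay just above the highest wild type, and the difference of 0.21 ± 0.07 (SE) did not pass (limma adjusted p = 0.13). Plk3, a stress-responsive polo-like kinase gene, is given because its difference was the largest among those not called, and it was chosen after its values were seen. Its values were 0.017, -0.29 and -0.37 in the mutants, against 0.20, 0.22 and -0.017 in the wild types. Mutant replicate 1 lay above wild-type replicate 3, and the difference of -0.35 ± 0.11 (SE) did not pass (limma adjusted p = 0.099). Without mutant replicate 1 it was -0.47 and passed (limma adjusted p = 0.015). Plk2, the related kinase gene of neurons, differed by -0.11 ± 0.07 (limma adjusted p = 0.41). The sestrin genes Sesn1 and Sesn2, which restrain mTORC1 under stress, differed by 0.043 and -0.0061, and the mTORC1 inhibitor gene Ddit4l by 0.0024.

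None of the 3 genes of repair and nucleotide supply passed by limma, and 1 had an unadjusted p under 0.05. Ercc5 encodes the XPG nuclease of nucleotide excision repair, Polk a translesion polymerase and Rrm2b the p53-inducible ribonucleotide reductase subunit. Ercc5 was 0.14 ± 0.06 higher in the mutants, with no overlap between the groups (limma adjusted p = 0.20), and it passed without mutant replicate 1. Polk differed by -0.12 ± 0.07 and Rrm2b by 0.064 ± 0.06 (limma adjusted p = 0.40 and 0.63).

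Perp was the only listed gene that fell. It encodes a tetraspan membrane protein that is a p53 death effector and a component of desmosomes in epithelia. Perp had centred log2 values of -0.27, -0.11 and -0.22 in the mutants, against 0.17, 0.11 and 0.17 in the wild types. All mutants were below all wild types, and the signal was 1.27-fold lower, a difference of -0.35 ± 0.05 (SE, n = 3 per genotype; limma adjusted p = 0.013). The call was kept when any 1 array was left out, and the highest limma adjusted p was then 0.0497. Markers of several cell types fell in the same arrays, namely 8 of 15 for neurons, 3 of 8 for astrocytes, 2 of 6 for the oligodendrocyte lineage, 2 of 7 for meninges and fibroblasts and 1 of 8 for endothelial cells. No marker was called among 6 for the choroid plexus and 12 for microglia and macrophages, with medians of -0.052 and -0.013. The meningeal mean was 0.022, -0.24 and -0.16 in the mutants, against 0.20, 0.10 and -0.0039 in the wild types. Without mutant replicate 2, 1 of these neuron markers passed and none of the astrocyte, oligodendrocyte-lineage, meningeal or endothelial ones. The part of these cells in the fall of Perp was not tested.

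The other 4 genes of death receptors and membranes did not pass. Fas and Tnfrsf10b, the receptors for Fas ligand and TRAIL, differed by 0.025 and -0.0072, with 95% intervals of -0.090 to 0.14 and -0.18 to 0.16. Eda2r, a receptor of the ectodysplasin family and a p53 target, was higher in every mutant, by 0.10 ± 0.04, and did not pass (limma adjusted p = 0.24). Ei24, a p53-induced gene of the endoplasmic reticulum, differed by 0.0061.

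None of the 6 BH3-only genes passed by limma, and 1 of them, Bik, had an unadjusted p under 0.05. Bbc3, which encodes PUMA, a p53-induced death protein of neural cells, had values of 0.13, -0.010 and 0.025 in the mutants, against 0.010, -0.037 and -0.11 in the wild types. The groups overlapped, and the difference was 0.093 ± 0.05 (SE, limma adjusted p = 0.39), with a 95% interval of -0.033 to 0.22. Pmaip1, which encodes NOXA, had values of -0.049, 0.018 and -0.018 in the mutants, against 0.097, -0.094 and 0.019 in the wild types. The mutants lay inside the wild-type range, and the difference was -0.024 ± 0.06 (SE, limma adjusted p = 0.87), with a 95% interval of -0.15 to 0.11. Bik had values of 0.021, 0.091 and 0.15 in the mutants, against -0.021, -0.18 and -0.19 in the wild types. Its groups did not overlap, and the difference of 0.21 ± 0.06 (SE) did not pass (limma adjusted p = 0.078). Leaving out wild-type replicate 1 brought Bik past the threshold (limma adjusted p = 0.047). Bcl2l11, which encodes BIM, Hrk, a neuronal BH3-only gene, and Bid, the caspase-8 substrate, differed by 0.058, -0.093 and -0.17, and their groups overlapped.

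Of the genes that act at and after the mitochondrion, 1 of 6 passed. Casp6 encodes an executioner caspase that is known for its part in axon degeneration. On the centred log2 scale Casp6 had 0.10, 0.15 and 0.098 in the mutants, against -0.37, -0.17 and -0.098 in the wild types. The mutants were close together and the wild types spread out, with wild-type replicate 1 lowest and no overlap. Casp6 rose 1.26-fold, a difference of 0.33 ± 0.07 (SE, n = 3 per genotype; limma adjusted p = 0.033). The call was lost without mutant replicate 2 or 3 or wild-type replicate 2, with limma adjusted p up to 0.14. Casp8, the initiator caspase gene of the death receptors, had values of 0.19, 0.089 and 0.031 in the mutants, against -0.031, -0.20 and -0.10 in the wild types. The groups did not overlap, and its difference of 0.21 ± 0.06 (SE) did not pass (limma adjusted p = 0.083). Diablo, which encodes the SMAC inhibitor of XIAP, was likewise higher in every mutant, by 0.20 ± 0.06 (limma adjusted p = 0.092), and reached the threshold when wild-type replicate 3 was left out. The apoptosome genes Apaf1 and Casp9 differed by 0.023 and 0.019, and the pore-forming gene Bak1 by -0.064, with no 95% bound beyond 0.22 in size.

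None of the 4 survival genes passed by limma, and 1, Xiap, had an unadjusted p under 0.05. Bcl2 had values of 0.081, 0.0063 and -0.15 in the mutants, against 0.011, -0.0063 and -0.083 in the wild types. Bcl2l1, which encodes BCL-XL, had values of 0.068, 0.046 and -0.093 in the mutants, against -0.072, -0.012 and 0.012 in the wild types. For both genes the wild types lay within the range of the mutants. The differences were 0.0060 ± 0.06 for Bcl2 and 0.031 ± 0.06 for Bcl2l1 (SE, limma adjusted p = 0.98 and 0.82). Mcl1, a short-lived survival gene needed by neural progenitors, and Xiap, the caspase inhibitor gene, were below the wild types in every mutant. Their differences were -0.081 ± 0.04 and -0.12 ± 0.04 (SE, limma adjusted p = 0.33 and 0.15).

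**Figure D3:**
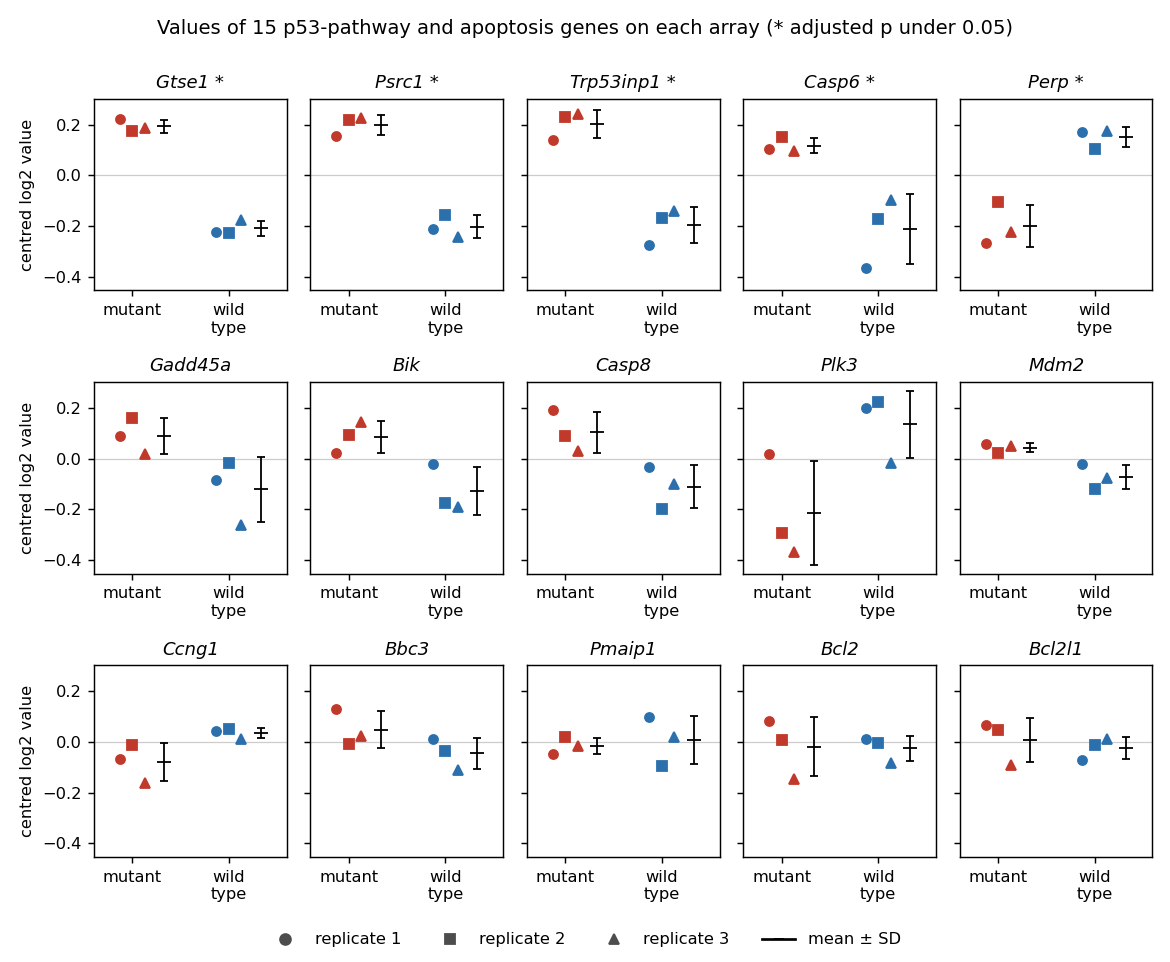
Centred log2 values (y axis) of 15 of the genes on each array, mutants left in red and wild types right in blue, with symbols for the replicate number and bars for the mean ± SD of 3 arrays. The 5 starred genes passed the adjusted test and show no overlap between genotypes; Plk3, Bbc3, Pmaip1, Bcl2 and Bcl2l1 overlap.

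For the 33 genes that did not pass, the widest 95% bound was -0.60 on the log2 scale, or 1.51-fold lower, for Plk3. SEs of the 38 differences lay between 0.042 and 0.11.

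The count of called genes depended on mutant replicate 2. Without it 3 genes passed, namely Gtse1, Psrc1 and Perp (7.89% of the list), while 145 of 23410 rows passed (0.619%). Without mutant replicate 1, 7 passed (18.4%, against 10.7% of all rows), with Plk3 and Ercc5 added. The count was 4 without mutant replicate 3 or wild-type replicate 2, when 2.55% and 1.43% of all rows passed. It was 6 without wild-type replicate 1 or 3, when 3.10% and 4.98% of all rows passed.

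Other genes of the pathway were read from lists of p53 regulators, further p53 targets and further apoptosis genes. Of 23 genes for p53 family members and their regulators, 2 rose and none fell, with a median of 0.047. They were the checkpoint kinase genes Chek1, by 0.53 ± 0.08, and Chek2, by 0.35 ± 0.05 (SE, limma adjusted p = 0.011 and 0.010). Chek2 kept its call in each fit with 1 array left out, and Chek1 lost it without mutant replicate 2 or wild-type replicate 2. The cycling-cell markers described above were higher in the same arrays, and their part in these rises was not tested. The p53 relatives Trp63 and Trp73 differed by 0.035 and 0.039. Mdm4, the p53 inhibitor that partners Mdm2, differed by 0.12 ± 0.05 (limma adjusted p = 0.23), and the p53-induced phosphatase gene Ppm1d by -0.00039. Trp53 itself, Cdkn1a and Bax have no single-gene row and were not analysed here.

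Of 41 further p53 targets, 3 rose and 2 fell, with a median of -0.0016. The rises were in Btg2, an antiproliferative gene of neurogenic progenitors, by 0.51 ± 0.07, Ckap2, a spindle protein gene, by 0.47 ± 0.10, and Rps27l, a ribosomal protein gene, by 0.37 ± 0.09. Limma adjusted p was 0.0097, 0.031 and 0.044. The falls were in the epoxide hydrolase gene Ephx1, by -0.31 ± 0.07, and the ubiquitin ligase gene Fbxw7, by -0.29 ± 0.05 (limma adjusted p = 0.043 and 0.014). Rps27l has a close paralogue in Rps27, and probes may not separate them. Btg2 lost its call without mutant replicate 2 and Fbxw7 without mutant replicate 2 or wild-type replicate 2. Ckap2 passed in 2 of the 6 fits with 1 array left out, and Ephx1 and Rps27l in 1 each. An unadjusted p under 0.05 was reached by 8 of the 41 genes in the higher and 9 in the lower direction. Among the 38 genes those counts were 10 higher and 3 lower. Over all 23410 rows they were 2345 higher and 2770 lower, or 21.8% in either direction. The difference between the lists was not tested.

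Of 46 further apoptosis genes, 3 rose and 1 fell, with a median of 0.022. Bmf, a BH3-only gene, rose by 0.35 ± 0.04 (SE, limma adjusted p = 0.0069), Casp2, an initiator caspase gene, by 0.26 ± 0.05 (limma adjusted p = 0.031), and Birc5 by 0.41 ± 0.06 (limma adjusted p = 0.011). Birc5 encodes survivin, which serves chromosome segregation in mitosis and also stands in the cycling-cell list. Bnip3, a hypoxia-induced mitochondrial gene, fell by 0.29 ± 0.04 (limma adjusted p = 0.011). All 4 lost their calls without mutant replicate 2. Birc5 and Bnip3 also did so without wild-type replicate 2, and Casp2 passed only without mutant replicate 1. The shares called were 8.70% for the regulators, 12.2% for the further p53 targets and 8.70% for the further apoptosis genes, beside 6.47% of all rows.

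**Figure D4:**
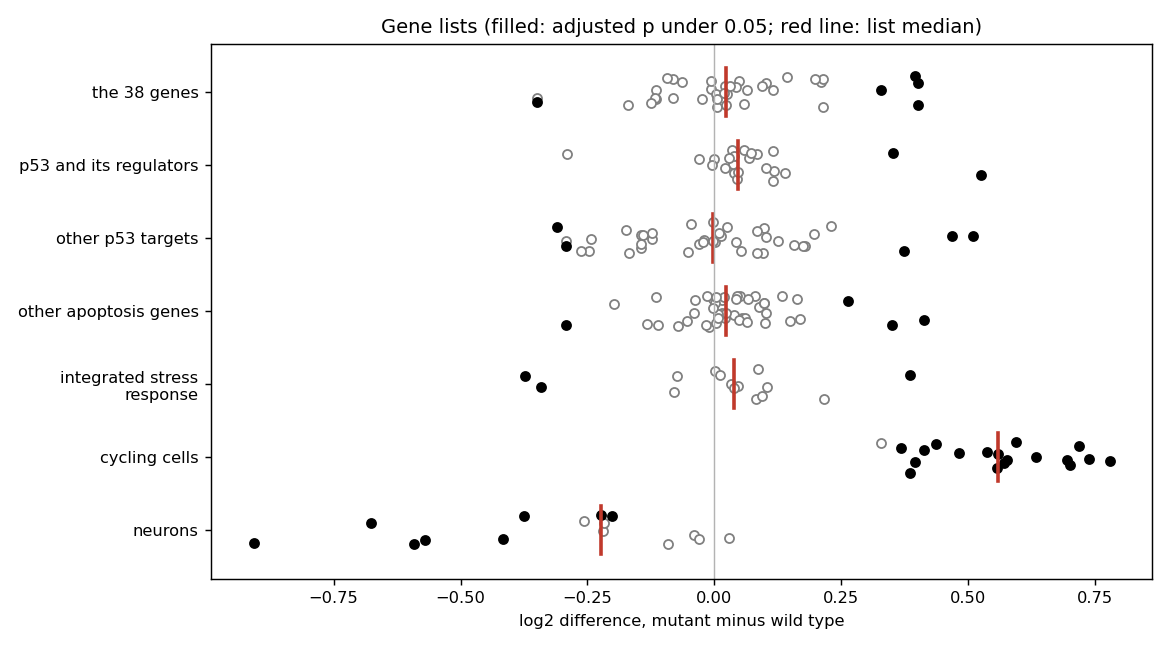
Log2 difference, mutant minus wild type (x axis), of the genes of each list (rows, points jittered vertically), filled where the limma adjusted p is under 0.05, with the list median as a red line. The 38 genes, the p53 regulators, further p53 targets and further apoptosis genes centre near 0, while cycling-cell genes have a median of 0.56 and neuron genes of -0.22.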

How the data were processed

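The deposited log2 values were made by the authors with RMA (Robust Multi-Array Average), as the series text says. Affymetrix Expression Console is listed, with no version, in the submitters' processing notes. The log base is not stated, and RMA gives log2. Each row's median over the 6 arrays was 0, a centring that no source used here describes, so no filter on low values could be applied. No source used here gives the annotation build or the probe summary level.

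Rows were named through the platform annotation, with symbols updated by gene identifier from a RefSeq table (GRCm38.p6). Of 28856 rows, 21789 named 1 gene, 1621 several and 5446 none. The 23410 rows naming a gene were fitted with limma 3.58.1 (R 4.3.3, lmFit and eBayes, two-sided, Benjamini-Hochberg) for 3 mutants against 3 wild types, and called at an adjusted p under 0.05. For a gene with several rows, the row with most accessions was used. Intervals are limma's moderated 95% intervals. The steps were tested on simulated data.

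Per-array values were given for called genes, for genes whose groups did not overlap and differed by at least 0.2, and for Mdm2, Ccng1, Bbc3, Pmaip1, Gadd45a, Bcl2 and Bcl2l1. Other pathway genes were named where called, beside Tdp2, Trp63, Trp73, Mdm4 and Ppm1d. The last 4, and the uncalled stress-response and microglia genes named in the closing part, were added after their values were seen. The genes and lists were chosen with earlier results of these data known. Figures were drawn with matplotlib 3.10.9.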

Additional observations from a re-analysis of the deposited data

How the results depend on the processing

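With all rows, 1 row per gene, equal array medians, cyclic loess or a robust variance prior, the same 5 genes were called. With array weights 15 were called, 10 higher and 5 lower, but 5425 of all rows were called too (23.2%). An unadjusted p under 0.05 gave 13, 10 higher and 3 lower. The plain t-test gave 0 in both directions (12 at an unadjusted p under 0.05) and called 0 rows of the whole table. Limma's treat against 1.2-fold gave 0 (3 at an unadjusted p under 0.05) and called only 17 of 23410 rows (0.0726%). With a fold limit of 1.2 in place of 1.5, 5 were called, and without that limit also 5 (beside 6.47% of all rows). The share of all rows at the 1.2-fold limit was not counted. Leaving out 1 array gave 3 to 7 calls, while 0.619% to 10.7% of all rows passed, 2 to 5 higher and 1 to 2 lower, and 0 at 1.5-fold in each. Genotypes share replicate numbers and the series text speaks of pairs, but no label ties a number to a pair. Same-numbered arrays deviated together in part, with correlations of 0.21, 0.047 and 0.20. Correlations between differently numbered arrays of the 2 genotypes lay between -0.22 and 0.057. The numbers were not taken as pairs, and these values do not settle whether they mark them. With the replicate block 9 genes were called, 7 higher and 2 lower, beside 10.3% of all rows (6.47% without it), the added ones being Gadd45a, Plk3, Diablo and Casp8. The 3 arrays per genotype and the lost signal levels limit what can be said of weakly expressed genes.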

Other observations

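Genes of the integrated stress response, a pathway run by the factors ATF4 and CHOP that can also raise death genes, were read beside the p53 list. Of 15 measured, 1 rose and 2 fell (20.0%, beside 6.47% of all rows), with a median difference of 0.040. Psat1, of serine synthesis, rose by 0.39 ± 0.06, while the asparagine synthetase gene Asns fell by 0.34 ± 0.08 and the cystine transporter gene Slc7a11 by 0.37 ± 0.06 (SE, limma adjusted p = 0.016, 0.042 and 0.013). All 3 lost their calls without mutant replicate 2 or wild-type replicate 2, and Psat1 and Asns also without mutant replicate 3. Asns did so without wild-type replicate 1 as well. Atf4 and Ddit3, which encode the 2 factors, differed by 0.046 and 0.087 and did not pass (limma adjusted p = 0.64 and 0.45).

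Microglia and macrophages clear dying cells in the embryonic brain. None of their 12 markers passed by limma or the plain t-test, and 2 had an unadjusted limma p under 0.05. Trem2, a receptor for lipids of dying cells, differed by 0.24 ± 0.06 and the complement gene C1qc by -0.26 ± 0.11 (SE, limma adjusted p = 0.064 and 0.20). With array weights 1 marker was called higher and 1 lower, and without mutant replicate 1 a single marker was called lower. The list mean was 0.00069, -0.054 and -0.034 in the mutants, against 0.020, -0.017 and -0.0065 in the wild types.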
